A study of Mus musculus with 6 samples.

Results

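Chromatin accessibility around Srp9 was described from 24 ATAC-seq peaks, of 175929 in the deposited table. In ATAC-seq, a transposase inserts adapters into open DNA, so that the number of sequenced ends (tags) in a peak measures how open it is. The 24 are the peaks whose nearest transcription start site (TSS) was that of Srp9, within 100000 bp. No Srp9 peak was left out by that distance, since the farthest lay at -50329 bp (negative is upstream). Srp9 was selected on the difference in tags between tamoxifen and oil libraries, so its values for that contrast are given as a description, without p-values.

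All 6 libraries came from AE9a leukaemia cells of the genotype Usp18+/f UBCER-Cre, grown after transplantation in recipient mice and sorted from spleen as GFP+, Lin-, c-Kit+ cells. AE9a, a shortened AML1/ETO fusion, is an oncogene used to model acute myeloid leukaemia in mice. Usp18 encodes a protease that removes ISG15 from proteins and restrains interferon signalling. Sick mice were injected with oil (replicates 1, 2 and 4) or with tamoxifen (replicates 1, 3 and 4), and cells were collected 3 days after the first injection. Both groups therefore carried the oncogene, 1 floxed Usp18 allele and a Cre recombinase fused to the oestrogen receptor and driven by the ubiquitin C promoter, which is active in most cell types. The agent itself was given to 1 group alone, so an effect of tamoxifen or of Cre activation cannot be told apart from loss of the allele. The labels do not tie libraries to mice. The study's methods describe, for the sorted cells shared with its RNA sequencing, a mouse for every library of a group, but its replication statement gives fewer replicates for ATAC-seq. Here n counts libraries, and if some share a mouse, part of their spread is technical.

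SRP9 is a small protein of the signal recognition particle, the RNA-protein complex that binds signal peptides as they leave the ribosome and brings the ribosome to the endoplasmic reticulum. Together with SRP14 it forms the Alu domain of the particle, which slows elongation until the ribosome has docked. In mouse, Srp9 lies on the plus strand of chromosome 1 (mm10 chr1:182124737-182132407, GENCODE), and the next protein-coding gene on its upstream side is Enah, on the minus strand, whose TSS lies 104747 bp away. Enah encodes a regulator of actin filament growth. The pair of promoters thus face away from each other across an interval in which GENCODE places a processed pseudogene, Gm37177.

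The 24 peaks fell into 14 upstream of the TSS, from -50329 to -8840 bp, 2 at the promoter (+19 and +462 bp) and 8 downstream, from +6299 to +15854 bp. All upstream peaks were intergenic in the authors' annotation and spanned 41734 bp. A peak was called when its fold change was over 2 and its adjusted p under 0.05 (DESeq2 over all peaks). By that rule 6 upstream peaks were higher after tamoxifen, against 0.588% of all peaks, and no Srp9 peak was called lower, against 0.0659% of all peaks. The reference sequences (mm10, plus strand) of these 6 peaks are shown because they hold most of the added tags. Of a peak longer than 300 bp the central 300 bases are given. Capitals mark matches to short motifs, those of RUNX, AP-1, PU.1, GATA, NF-kB and STAT and the interferon response core. Matches to the other motifs described below, such as MEIS and the E-box, are left in lower case. TTATCT, at -42514 and -39976 bp, is the GATA motif AGATAA read on the other strand. TTCATCGAA and GAAAGAGAA, at -27590 bp, match the STAT motif TTCNNNGAA and the core of the interferon-stimulated response element (ISRE) GAAANNGAA, and TTCTCAGAA, at -15941 bp, is a STAT match.
Srp9 -42514 bp, chr1:182082073-182082372: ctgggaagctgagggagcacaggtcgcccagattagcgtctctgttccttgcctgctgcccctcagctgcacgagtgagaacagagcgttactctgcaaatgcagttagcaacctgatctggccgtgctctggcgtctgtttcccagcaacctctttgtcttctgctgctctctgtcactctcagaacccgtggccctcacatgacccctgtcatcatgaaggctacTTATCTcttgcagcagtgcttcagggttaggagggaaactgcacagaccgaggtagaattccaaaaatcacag
Srp9 -40220 bp, chr1:182084412-182084622: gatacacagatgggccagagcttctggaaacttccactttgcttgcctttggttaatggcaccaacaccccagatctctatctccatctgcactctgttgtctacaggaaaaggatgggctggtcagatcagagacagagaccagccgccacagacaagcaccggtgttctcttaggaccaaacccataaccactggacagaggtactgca
Srp9 -39976 bp, chr1:182084648-182084875: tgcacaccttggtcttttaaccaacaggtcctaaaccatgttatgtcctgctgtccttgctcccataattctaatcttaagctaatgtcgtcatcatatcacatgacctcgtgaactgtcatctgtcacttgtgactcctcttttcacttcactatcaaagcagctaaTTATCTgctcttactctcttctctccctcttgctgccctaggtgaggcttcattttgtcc
Srp9 -27590 bp, chr1:182096997-182097296: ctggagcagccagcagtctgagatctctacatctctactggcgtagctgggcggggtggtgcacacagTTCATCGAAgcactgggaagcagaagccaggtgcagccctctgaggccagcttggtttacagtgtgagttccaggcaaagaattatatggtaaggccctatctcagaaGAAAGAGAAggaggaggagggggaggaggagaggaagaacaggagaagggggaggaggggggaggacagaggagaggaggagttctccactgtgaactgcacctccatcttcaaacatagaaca
Srp9 -15941 bp, chr1:182108646-182108945: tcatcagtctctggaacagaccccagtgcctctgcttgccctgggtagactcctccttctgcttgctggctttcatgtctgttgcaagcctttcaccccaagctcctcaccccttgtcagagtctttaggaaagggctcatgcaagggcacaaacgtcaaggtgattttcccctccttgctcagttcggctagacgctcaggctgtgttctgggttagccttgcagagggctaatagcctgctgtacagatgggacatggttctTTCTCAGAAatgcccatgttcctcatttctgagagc
Srp9 -8840 bp, chr1:182115758-182116037: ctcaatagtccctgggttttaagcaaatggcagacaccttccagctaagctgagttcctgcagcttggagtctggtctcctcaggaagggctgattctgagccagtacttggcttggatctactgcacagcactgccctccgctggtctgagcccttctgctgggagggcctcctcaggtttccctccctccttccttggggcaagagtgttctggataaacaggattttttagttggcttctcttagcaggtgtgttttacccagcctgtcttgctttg

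Accessibility rose most with tamoxifen at the peak centred 42514 bp upstream of the TSS (chr1:182082047-182082399). It held 40.8, 41.4 and 40.8 normalised tags (tags divided by the size factor of the library) in oil replicates 1, 2 and 4. In tamoxifen replicates 1, 3 and 4 it held 306, 378 and 206. Every tamoxifen library lay far above every oil library, and tamoxifen replicate 4 was the lowest of its group. The fitted log2 fold change was 2.85 (SE 0.22).

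A pair of peaks about 2 kb closer to the gene showed the same order of tamoxifen libraries. The peak at -40220 bp (chr1:182084412-182084622) held 20.4, 34.6 and 26.9 normalised tags with oil. With tamoxifen it held 161, 205 and 112, a log2 fold change of 2.53 (SE 0.27). The peak at -39976 bp (chr1:182084648-182084875) held 33.1, 36.1 and 23.7 with oil. It held 156, 204 and 143 with tamoxifen, a log2 fold change of 2.45 (SE 0.24). Only 25 bp separate these peaks, so they may be parts of 1 open region rather than independent sites.

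The other called peaks lay closer to Srp9. At -15941 bp (chr1:182108543-182109050) the oil libraries held 28.7, 25.8 and 28.2 normalised tags and the tamoxifen libraries 140, 123 and 96.4, a log2 fold change of 2.12 (SE 0.26). At -8840 bp (chr1:182115758-182116037) the values were 49.6, 71.7 and 47.0 with oil and 150, 129 and 102 with tamoxifen, a log2 fold change of 1.18 (SE 0.23). The peak at -27590 bp (chr1:182096933-182097361) was just inside the fold limit. Its centre is annotated in a B1 repeat, where short reads are harder to place. It held 33.1, 45.8 and 35.4 with oil and 94.2, 81.3 and 64.7 with tamoxifen, a log2 fold change of 1.07 (SE 0.26). In none of the 6 did the groups overlap, and in all 6 the lowest tamoxifen value was that of replicate 4.

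**Figure D1:**
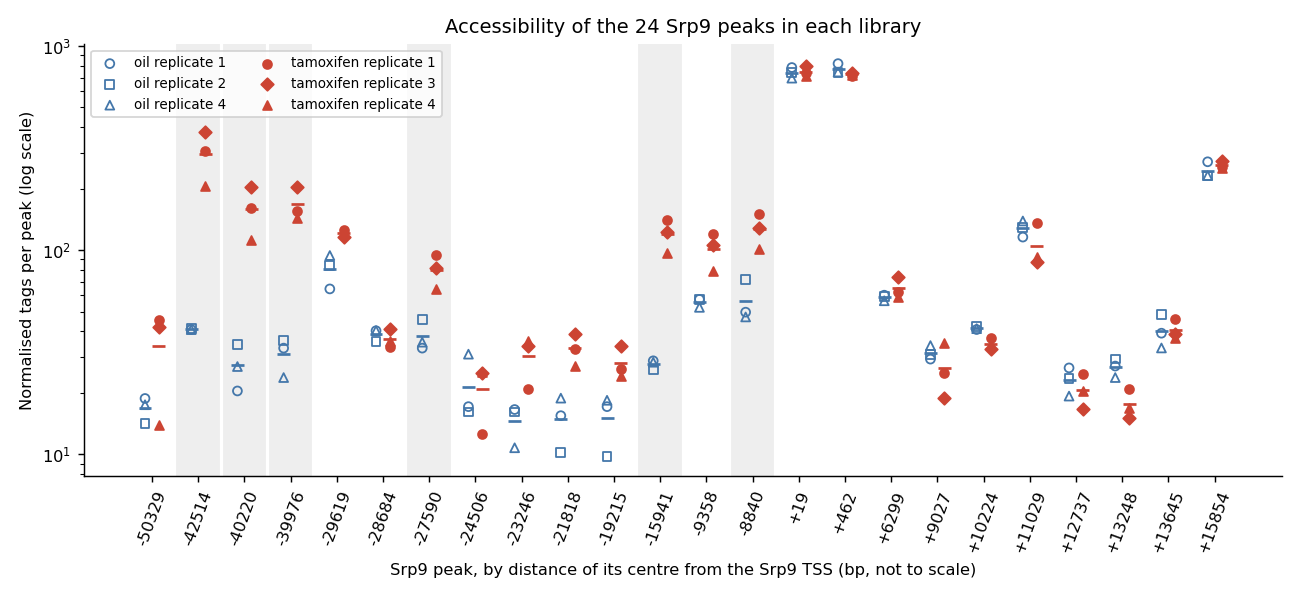
Normalised tags per peak (log scale) of the 24 Srp9 peaks in each library, ordered along the chromosome by the distance of the peak centre from the TSS. Points are libraries (open blue, oil; filled red, tamoxifen), short lines are group means (n = 3) and grey bands mark the 6 called peaks, in which every red point lies above every blue one.

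Peaks next to these differed less. The peak at -9358 bp (chr1:182115272-182115486), separated by 271 bp from the called peak at -8840 bp, was just outside the fold limit. It held 57.4, 57.1 and 52.4 normalised tags with oil and 120, 106 and 79.2 with tamoxifen, a log2 fold change of 0.88 (SE 0.23). The peak at -29619 bp, the widest upstream one at 632 bp, held 80.8 ± 15.0 (SD, n = 3) with oil and 121 ± 4.98 with tamoxifen, a log2 fold change of 0.58 (SE 0.20). In both peaks the groups did not overlap.

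A further 3 peaks, at -23246, -21818 and -19215 bp, were at the edge of detection with oil. All 3 stood only in the authors' peak list of the tamoxifen group, so their direction is not independent of how they were listed. Their oil means were 14.5, 14.8 and 15.1 normalised tags, and their tamoxifen means 30.2, 33.0 and 28.1. Each had all tamoxifen libraries above all oil libraries, with log2 fold changes of 1.08, 1.16 and 0.88 and SEs of 0.41 to 0.42. At such counts counting error alone is a large part of the spread, and none of the 3 was called by DESeq2, while edgeR called those at -23246 and -21818 bp.

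The remaining 3 upstream peaks had overlapping groups. At -50329 bp the oil libraries held 18.8, 14.1 and 17.5 normalised tags, and tamoxifen replicates 1 and 3 held 45.4 and 41.8, while replicate 4 held 14.0 and lay below the oil libraries. The peak at -28684 bp, in a B2 repeat, held 38.7 ± 2.71 (SD, n = 3) with oil and 36.8 ± 4.03 with tamoxifen. It lies 766 bp from the called peak at -27590 bp. The peak at -24506 bp, in a long terminal repeat, held 21.4 ± 8.28 with oil and 20.9 ± 7.24 with tamoxifen.

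Of the 24 peaks, 11 thus had every tamoxifen library above every oil library, all of them upstream, where 11.9% of all peaks did. Among the 11, those at -23246, -21818, -19215 and -15941 bp stood in the tamoxifen peak list alone. Another 3 of the 24 peaks had every tamoxifen library below every oil library, where 10% of all peaks did. Over the 14 upstream peaks the median log2 fold change was 1.07, against 0.00 over all peaks. Summed over these 14 peaks, oil libraries held 453, 498 and 485 normalised tags and tamoxifen libraries 1424, 1555 and 1087. The mean sum was 479 ± 23.4 (SD, n = 3) with oil and 1355 ± 242 with tamoxifen, 2.83 times as many. It was 3.11 times as many without tamoxifen replicate 4. The 6 called peaks made up 83.2% of the difference, and the other 8 upstream peaks went from 258 ± 22.1 to 405 ± 38.1.

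The promoter of Srp9 was among the most open peaks of the table and differed little between groups. Counts were limited to at most 3 tags per position, so a rise at such open peaks could be understated. The peak at the TSS (+19 bp, chr1:182124655-182124857) held 784, 738 and 696 normalised tags with oil and 738, 795 and 712 with tamoxifen. Its log2 fold change was 0.02 (SE 0.09). The peak at +462 bp, in intron 1 within a CpG island (chr1:182125072-182125327), held 820, 745 and 746 with oil and 717, 741 and 724 with tamoxifen. There the tamoxifen libraries all lay below the oil libraries, by a log2 fold change of -0.08 (SE 0.08). Summed, the promoter held 1510 ± 84.3 normalised tags with oil and 1475 ± 53.5 with tamoxifen (SD, n = 3).

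Downstream of the TSS no Srp9 peak was called by DESeq2 or by edgeR. The strongest, at +15854 bp (chr1:182140452-182140730), held 271, 231 and 232 normalised tags with oil and 255, 274 and 253 with tamoxifen, a log2 fold change of 0.10 (SE 0.13). The wide peak at +11029 bp held 116, 129 and 139 with oil and 136, 87.5 and 92.2 with tamoxifen, so the groups overlapped. Groups did not overlap in 2 of the 8, at +10224 and +13248 bp, where oil was higher with means of 41.5 against 34.8 and 26.7 against 17.5. Of all peaks, 10% had every tamoxifen library below every oil library. Both of these peaks stood only in the authors' peak list of the oil group, so their direction is not independent of how they were listed. The other 4 had log2 fold changes between -0.23 and 0.15 and overlapping groups. The 8 together held 594 ± 15.6 with oil and 571 ± 31.7 with tamoxifen (SD, n = 3).

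**Figure D2:**
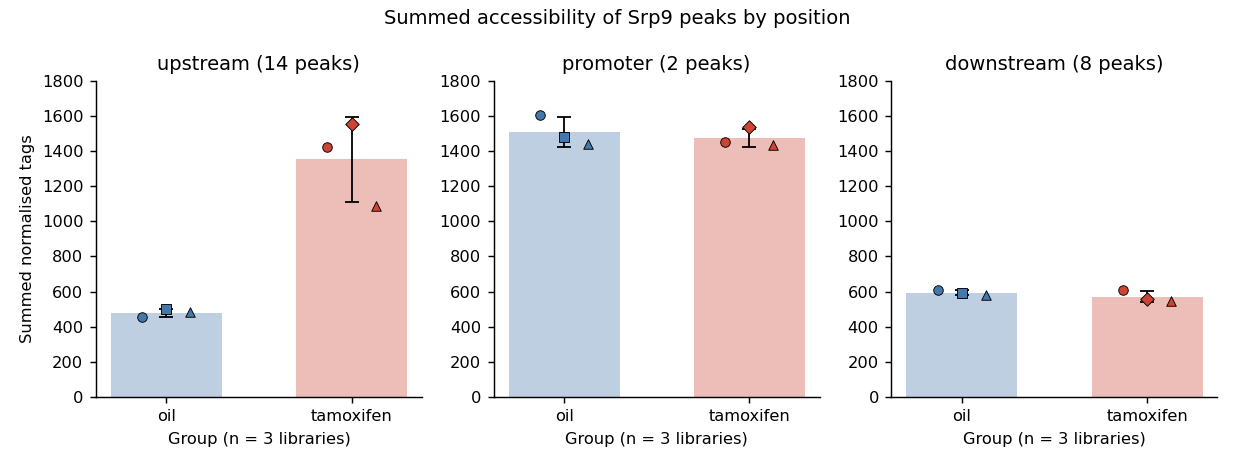
Summed normalised tags of the 14 upstream, 2 promoter and 8 downstream Srp9 peaks with oil and tamoxifen. Bars are means, error bars are SD (n = 3 libraries) and points are libraries, with triangles for replicate 4 of either group. The groups are apart in the upstream panel, where sums went from 453 to 498 with oil and from 1087 to 1555 with tamoxifen, and overlap in the other panels.

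Relative to the TSS peak of the same library, the lead peak at -42514 bp went from 5.56% ± 0.331 with oil to 39.3% ± 9.46 with tamoxifen (SD, n = 3). A ratio within a library does not depend on its size factor, but the cap on tags per position bears most on the very open TSS peak. The same ratio went from 3.74% ± 0.287 to 16.0% ± 2.77 at -15941 bp and from 7.60% ± 1.84 to 16.9% ± 3.13 at -8840 bp. It was 33.0% ± 1.66 and 34.8% ± 0.591 for the downstream peak at +15854 bp. Per 100 bp of peak, the lead peak went from 11.6 to 84.0 normalised tags, while the TSS peak had 364 and 369.

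The 6 called peaks were not closed in oil libraries, but ranked low to middling among all peaks. The lead peak had a higher oil mean than 41.1% of all peaks and a higher tamoxifen mean than 91.0%. The peaks at -40220 and -39976 bp went from 20.1% and 26.7% to 82.3% and 83.2%, and the peak at -15941 bp from 20.7% to 76.5%. These ranks are not corrected for peak width. In the authors' peak lists, made separately for each group, 8 of the 14 upstream peaks stood in both and 6 in the tamoxifen list alone. The called peak at -15941 bp was among these 6. Of the 8 downstream peaks, 4 stood in both lists and 4 in the oil list alone, those at +10224 and +13248 bp among them. Among all peaks, 11.2% stood in the tamoxifen list alone and 17.4% in the oil list alone.

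**Figure D3:**
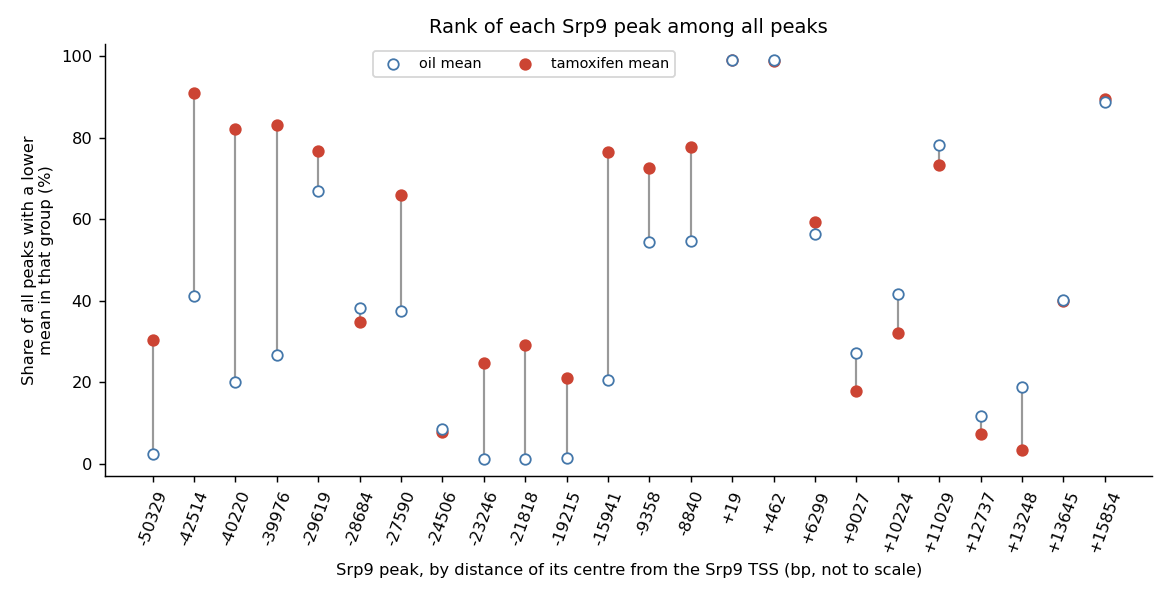
Share of all 175929 peaks that had a lower group mean than each Srp9 peak (per cent), for the oil mean (open circles) and the tamoxifen mean (filled circles), with peaks ordered along the chromosome. The lead peak at -42514 bp moves from 41.1% to 91.0%, while the promoter peaks stay above 98%.

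Peaks that were higher after tamoxifen continued past the last Srp9 peak into the peaks assigned to Enah. Within 250000 bp of the Srp9 TSS lay 77 peaks of 6 other genes. Of these 6 were called higher and none (0) lower by DESeq2, against 0.588% and 0.0659% of all peaks. An unadjusted DESeq2 p under 0.05 was reached by 17, against 9.02% of all peaks. The edgeR test called 8, all higher, against 1566 called higher among all 175929 peaks. Of the 6, 4 belonged to Enah. The strongest, 24799 bp upstream of the Enah TSS (chr1:182044561-182044998), held 7.72, 17.1 and 15.7 normalised tags with oil and 60.9, 73.5 and 33.5 with tamoxifen, a log2 fold change of 2.00 (SE 0.39). It lies between the pair of genes, 79958 bp from the Srp9 TSS. Another 2 called peaks of Enah lie in the same interval, at 13985 and 3015 bp from the Enah TSS, with log2 fold changes of 1.13 and 1.41. The fourth lies 16686 bp inside Enah, with a log2 fold change of 1.42.

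Both other called peaks were assigned to Lbr, which encodes the lamin B receptor of the inner nuclear membrane. They lie within the Enah gene, 208439 and 203094 bp from the Srp9 TSS. Their log2 fold changes were 1.09 (SE 0.25) and 1.19 (SE 0.27), and their groups did not overlap. The count of 6 neighbours depended on single libraries: it was 2, 2 and 3 with oil replicate 1, 2 or 4 left out, and 1, 1 and 8 with tamoxifen replicate 1, 3 or 4 left out. Of the 8, 7 were higher and 1 was lower. The 1 called without tamoxifen replicate 1 was not among the 6.

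At the Enah TSS itself the nearest peak (+27 bp) held 52.4, 43.4 and 49.7 normalised tags with oil and 128, 79.7 and 69.4 with tamoxifen. Its groups did not overlap, and with a log2 fold change of 0.92 (SE 0.26) it was not called. All 11 Enah peaks had a positive log2 fold change, and 6 had a DESeq2 adjusted p under 0.05, against 2448 of all 175929 peaks. In 10 of the 11 every tamoxifen library lay above every oil library, against 11.9% of all peaks. The 4 called Enah peaks and some of the others stood in the authors' tamoxifen peak list alone, as did 11.2% of all peaks. Such peaks entered the table through the group in which they are higher, so their direction is not independent of how they were listed. Against the 0.92 of the Enah TSS peak, the Srp9 promoter peaks had log2 fold changes of 0.02 and -0.08. They were far more open, with 739 and 770 normalised tags with oil. The lead peak lies 42514 bp from the Srp9 TSS and 62233 bp from that of Enah. Its assignment to Srp9 rests on that distance alone, and neither enhancer marks nor contacts with a promoter were measured in these libraries, so the upstream peaks are named here by position.

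Taken stretch by stretch, 9 of the 18 peaks between both TSSs (more than 3000 bp from either) were called higher, against 0.588% of all peaks. In 15 of them every tamoxifen library lay above every oil library, against 11.9% of all peaks, and the median log2 fold change was 1.10. Of these 18, 14 were Srp9 peaks, which were selected on this contrast. From 3000 to 250000 bp on the other side of the Srp9 TSS, none (0) of 58 peaks was called by DESeq2 or by edgeR. Of all peaks, DESeq2 called 0.588% higher and 0.0659% lower. An unadjusted DESeq2 p under 0.05 was reached by 6 of the 58, against 9.02% of all peaks, and their median log2 fold change was -0.08. In that stretch 1 peak of Degs1, which encodes a ceramide desaturase, and 1 of Fbxo28 had an adjusted p under 0.05 with less than a 2-fold change, at log2 fold changes of 0.71 and -0.69. The peaks nearest the TSS of Degs1 and Fbxo28 had log2 fold changes of -0.06 (SE 0.09) and -0.05 (SE 0.09). The nearest peak of Vmn1r1, a vomeronasal receptor gene and the first downstream neighbour, held 42.4 ± 12.7 with oil and 67.3 ± 13.1 with tamoxifen (SD, n = 3).

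**Figure D4:**
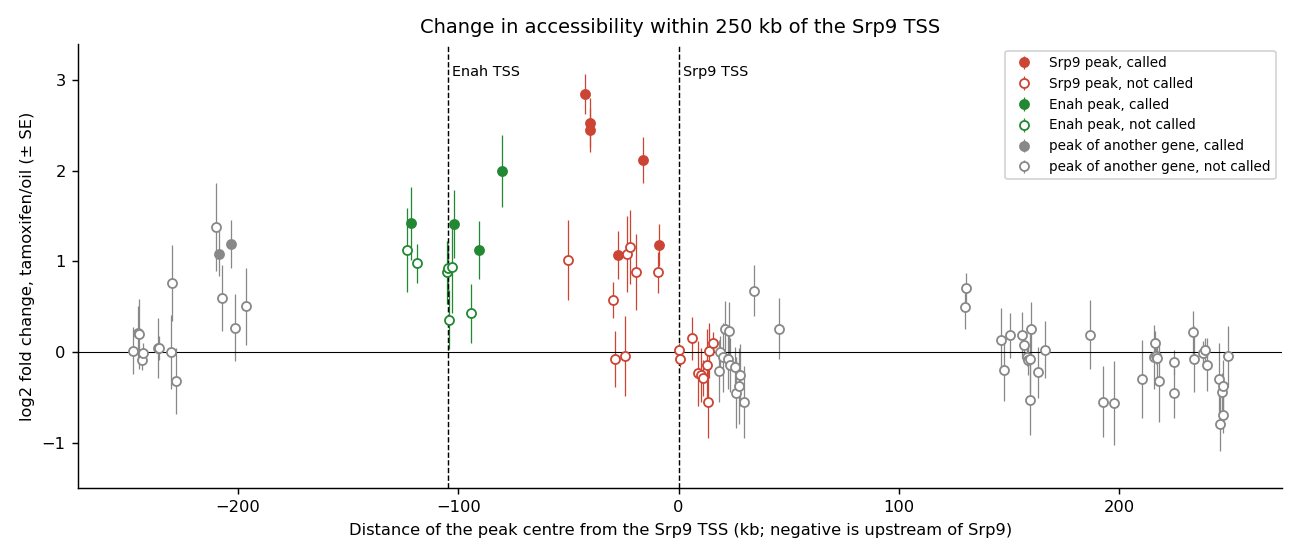
Fitted log2 fold change of tamoxifen over oil (± SE) for all 101 peaks within 250 kb of the Srp9 TSS against the distance of the peak centre from it. Filled symbols are called peaks, red is Srp9, green is Enah and grey is any other gene. The called peaks lie on the upstream side, up to the body of Enah, and none (0) lies on the downstream side.

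Groups of called peaks were found elsewhere too. The widest spacing between the centres of adjacent called Srp9 peaks was 12386 bp. When called-higher peaks no farther apart than this were joined, a distance chosen after the Srp9 peaks were seen, the 1034 called-higher peaks formed 827 groups. Of these 39 had at least 3 peaks and 11 at least 5. The 6 Srp9 peaks formed 1 group, from chr1:182082047 to 182116037.

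The base composition of the upstream peaks was ordinary. In the central 200 bp, their median GC content was 52.3%, against 49.5% for peaks more than 3000 bp from a TSS, and that of the promoter peaks was 70.5%. Motifs were searched in the same window on both strands, and their shares are a description. The GATA motif AGATAA stood in 4 of the 24 Srp9 peaks, all upstream, and in 15.1% of all peaks. Among called peaks it stood at -42514 and -39976 bp, as marked in the sequences above. The same pair held the MEIS motif TGACAG (5 of 24 Srp9 peaks, 15.6% of all peaks). The E-box CAGCTG was found in 4 of 24, the lead peak included, and in 13.1% of all peaks.

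The RUNX motif TGTGGT, of the family from which the AML1 part of the fusion protein comes, stood in 7 of 24 Srp9 peaks and in 18.7% of all peaks. It stood in 37.0% of all called-higher peaks, but in none (0) of the 6 Srp9 peaks that DESeq2 called. The 5 upstream peaks with it, at -50329, -28684, -24506, -23246 and -21818 bp, were not called by DESeq2, but edgeR called the last pair of these. The MYB motif CAACTG (2 of 24, 10.2% of all peaks) shares bases with a RUNX match at -21818 bp.

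The ISRE core was found at -27590 and -9358 bp (2 of 24, 5.13% of all peaks). The STAT motif was found at -27590 bp (4.85% of all peaks), the AP-1 motif TGANTCA at -19215 bp (6.61%) and the heat shock motif GAANNTTC at -40220 bp (3.92%). The STAT match capitalised in the sequence at -15941 bp lies outside the central window. A match to the NF-kB motif stood in the +462 bp peak (5.03% of all peaks) and one to CTCF in the +15854 bp peak (3.90%). The PU.1 motif GAGGAAGT, the C/EBP motif TTGCNNAA, the CRE motif TGACGTCA, the nuclear receptor core motif AGGGTCA and the palindromic oestrogen and glucocorticoid response elements had no match in the central window of any Srp9 peak. Of all peaks, 3.75%, 6.44%, 0.575%, 2.54%, 0.0120% and 0.00569% held them.

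Across the 6 libraries, the pattern of the lead peak was followed most closely within Srp9 by the peaks at -15941, -40220 and -39976 bp, with Pearson's r of 0.992, 0.987 and 0.986 on log2(normalised tags + 1). Among 166683 peaks with a mean of at least 20 normalised tags, the closest peaks of other genes belonged to Dnah17, an axonemal dynein (r = 0.999), Jakmip1, a microtubule-binding protein (r = 0.999), Tmem2, a cell surface protein (r = 0.998), Col15a1, a collagen (r = 0.998), and Gm17746 (r = 0.998). With 6 libraries in 2 groups, r mainly reflects the split between oil and tamoxifen, and not the size of the change. That split is the contrast on which Srp9 was selected. The log2 fold changes of these 5 peaks ran from 0.15 to 1.47, and only the Dnah17 peak was called.

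In the rest of the signal recognition pathway no promoter passed the test. Of 25 genes of the particle, its receptor, the translocon and the signal peptidase, 24 had a peak within 3000 bp of the TSS. None was listed under the name Srpr, but genes were matched by 1 name alone, so an entry under another name would be missed. Of their 61 peaks none (0) was called by DESeq2 or by edgeR. An unadjusted p under 0.05 was reached by 1 with DESeq2, against 9.02% of all peaks. With edgeR it was reached by 6, against 30987 of all 175929 peaks. The median log2 fold change was 0.00, the same as over all peaks. Srp14, the partner of Srp9, held 627 ± 21.1 normalised tags with oil and 632 ± 28.8 with tamoxifen at its promoter (SD, n = 3). For Srp68 the values were 530 ± 33.4 and 545 ± 43.6, and for Srp72, whose protein pairs with SRP68, 554 ± 43.0 and 557 ± 25.6. Srp19 held 466 ± 21.4 and 481 ± 21.4. Srp54a, whose protein binds the signal peptide, held 566 ± 36.4 and 576 ± 29.8, which is uncertain since it has near-identical copies. Per 100 bp, these promoter peaks held 173 to 275 normalised tags with oil, below the 364 of the Srp9 TSS peak. The cap on tags per position applies to them too, so a rise there could also be understated.

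Library properties were set beside these results. Libraries had between 57.4 M and 74.7 M tags in all (M, mega) and between 17.5 M and 21.1 M in peaks. Tags in peaks were 19.4 ± 1.80 M in the oil group and 19.3 ± 1.59 M in the tamoxifen group (SD; two-sided exact permutation test, p = 1, n = 3 each, smallest possible p = 0.1). A median peak had between 45.0 and 57.0 tags. Counts of libraries within a group were compared by chi-square over its degrees of freedom. Since tags come in steps of 0.5, counting error alone need not give 1. The value was 1.03 to 1.22 between oil libraries. Between tamoxifen libraries it was higher (1.48 to 2.68), with the largest values for pairs with tamoxifen replicate 4. That library was the lowest tamoxifen library in 75.4% of all called-higher peaks and in 37.9% of all peaks. Without it, 8 Srp9 peaks were called, the same 6 among them, and the lead peak had a log2 fold change of 3.06.

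In bulk libraries, a larger share of cells with an open site cannot be told apart from a more open site in each cell. Markers of the sorted population were present: the Kit promoter peak held 757 normalised tags with oil and 787 with tamoxifen, whereas no peak within 3000 bp of the TSS of Ptprc was listed. Of 54 promoter peaks of 7 progenitor genes 1 was called higher, against 0.588% of all peaks: that of Cd34, a marker of stem and progenitor cells. It held 94.6 with oil and 270 with tamoxifen, a log2 fold change of 1.50. Summed over the list, oil libraries held 10180 to 10330 and tamoxifen libraries 10040 to 11170 normalised tags.

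For the other cell types no promoter peak (0) was called by DESeq2 or by edgeR, with an unadjusted DESeq2 p under 0.05 at 6 of 43 erythroid, 0 of 15 T cell, 4 of 16 B cell and 1 of 19 mature myeloid peaks, against 9.02% of all peaks. An adjusted p under 0.05 with less than a 2-fold change was reached by 1 erythroid peak, where 2448 of all 175929 peaks had such a p at any fold. Erythroid sums were 6848 to 7235 with oil and 6509 to 6720 with tamoxifen, T cell sums 676 to 830 and 618 to 723, B cell sums 900 to 1003 and 974 to 1131, and mature myeloid sums 1074 to 1090 and 1142 to 1168. Tamoxifen libraries thus all lay below oil libraries in the erythroid sums and all above them in the mature myeloid sums. No peak was listed at the TSS of Cd3d, Cd4, Cd8a, Ms4a1, Pax5, Ly6g, S100a8, S100a9 or Csf1r. The part of cell makeup in the Srp9 result was not tested. The Usp18 promoter peak (438 ± 21.8 with oil, 449 ± 17.0 with tamoxifen; SD, n = 3) does not check the deletion, because the sources used here do not give the floxed exon.

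**Figure D5:**
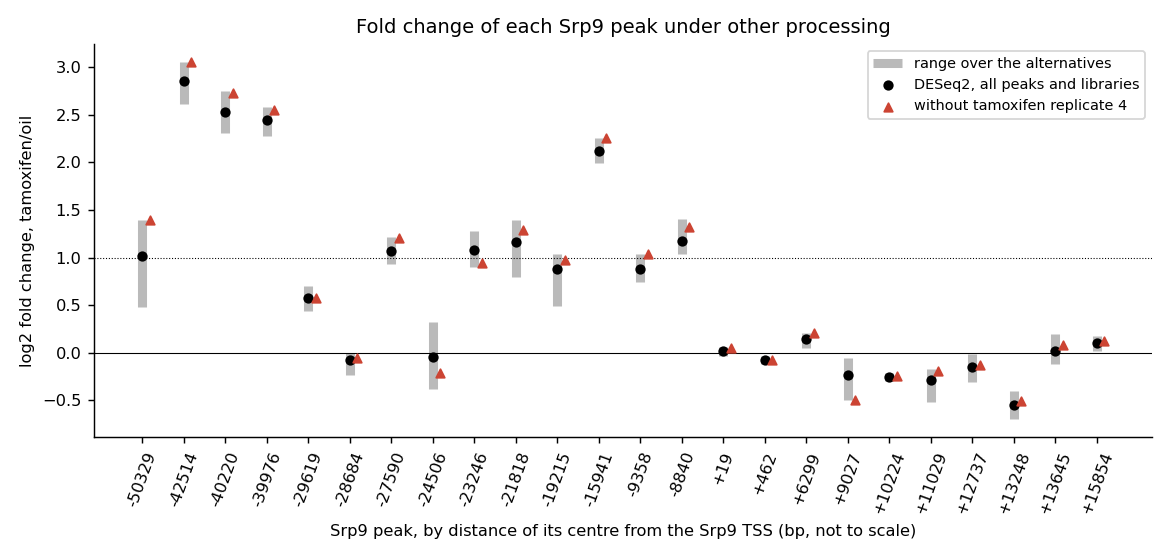
Fitted log2 fold change of each Srp9 peak with all libraries (black), its range over the alternatives (grey bars; 12 per peak, 11 for both promoter peaks) and its value without tamoxifen replicate 4 (red triangles). The dotted line marks a 2-fold change. The peaks at -42514, -40220, -39976 and -15941 bp stay near or above a log2 fold change of 2, the promoter peaks stay near 0, and the downstream peaks lie between -0.70 and 0.21.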

How the data were processed

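The deposited table gives, for each of 175929 peaks and 6 libraries, an estimated count of ATAC-seq tags in steps of 0.5. The authors aligned reads to mm10 with Bowtie2, called peaks in each group with HOMER, merged the lists and counted tags per merged peak, with at most 3 tags per position and without normalisation. Peaks therefore come from the libraries compared, very open peaks are capped, and Srp9 is named only as the nearest TSS. The deposited score of each peak was not used.

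Rounded tags entered a Wald test in DESeq2 1.42.0 under R 4.3.3 (default size factors, Benjamini-Hochberg adjustment) over all peaks. Called peaks had more than a 2-fold change with adjusted p below 0.05. Normalised tags are tags divided by the size factor (0.898 to 1.12). In simulated data with 50 peaks at each fold of 2 and 4 among 175929, 22 and 47 passed the adjusted p. The members, gene lists and motifs were chosen with earlier results of these data known. Named are every Srp9 peak, called neighbours, each neighbour gene's peak nearest its TSS, core genes of the particle and the 5 peaks most like the lead one. Motifs were searched in GRCm38 (175738 peaks with sequence). edgeR 4.0.16, other size factors, a filter, distal peaks alone, a replicate block and leaving out each library were alternatives.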

Additional observations from a re-analysis of the deposited data

How the results depend on the processing

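The count of 6 called Srp9 peaks was 5 to 8 when 1 library was left out, 8 with edgeR's quasi-likelihood test and 4 with the replicate block, and every called peak was higher. Of these 6, the peaks at -42514, -40220, -39976 and -15941 bp were called under all 12 alternatives, that at -8840 bp under 11 and that at -27590 bp under 7. Of 286 fold changes of Srp9 peaks under alternatives, 3 moved by more than the spread between libraries, all with the replicate block and none at a called peak. Called neighbours were 6, but 0 by DESeq2 with the replicate block (6 at an unadjusted p under 0.05), 10 without a fold limit and 1 to 8 when 1 library was left out. Of the 10, 9 were higher and 1 was lower. All called peaks numbered 1150, but 56 with the block, 1815 with edgeR, 2448 without a fold limit and 369 to 2603 with 1 library left out: 609, 567 and 668 without oil replicates 1, 2 and 4, and 631, 369 and 2603 without tamoxifen replicates 1, 3 and 4. The balance of directions moved too. Of all called peaks 1034 were higher and 116 lower, but 22 and 34 with the block, and 1835 and 768 without tamoxifen replicate 4. The block used the 4 libraries numbered 1 and 4, whose numbers do not pair them (correlation of deviations -0.044 and 0.0508). No signal recognition pathway promoter peak was called under any alternative. Tags in distal peaks were higher in the tamoxifen group, the reverse of all peaks, with an exact p of 0.9. Peaks with few tags, such as those at -23246, -21818 and -19215 bp, limit what could be called.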
